A study of Mus musculus with 9 samples.

Results

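The respiratory chain is built from 2 genomes, and its genes were followed here in 9 leg muscle libraries from WT mice of the strain written c57b6l. The genes are 99 rows of a count table of 55335: 15 encoded by mitochondrial DNA and 84 encoded in the nucleus. They were chosen by symbol, from 116 matching names, after leaving out 8 complex I assembly factors, 7 pseudogene names and 2 genes under the minimum of 100 counts summed over the 9 libraries. The 15 mitochondrial genes comprise 7 of complex I, 1 of complex III, 3 of complex IV, 2 of complex V and both ribosomal RNAs, and the 84 nuclear genes comprise 38 of complex I, 4 of complex II, 9 of complex III, 16 of complex IV and 17 of complex V. Genes just inside the minimum were Cox6b2 with 202 counts, Cox4i2 with 731 and Ndufa4l2 with 2350. Those left outside it, Cox7b2 and Cox8c, had 0 counts in every library, which allows up to 0.0554 to 0.100 CPM (3 counts per library, counting error only; CPM are counts divided by library size). Symbols place Ndufa4 in complex I, although its protein is known as a subunit of complex IV, and Cox7a2l, Atp5s and Atp5sl are named like subunits of complexes IV and V without being catalytic parts of them.

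All mice carried the injury that the labels call hindlimb suspension ischemia, so no group is uninjured muscle. The labels give 3 samples from mice given aspirin combined with a peptide hydrogel (hydrogel libraries), 3 given aspirin alone (aspirin libraries) and 3 left untreated (control libraries). They do not say whether replicates are separate mice, so p-values measure the spread between these samples, which may be technical. Age, sex, dose and time after injury are not stated in the labels, and a hydrogel without aspirin was not analysed here. Library totals ran from 32197791 to 48170537 counts. Summed skeletal muscle fibre markers stood at 169217 to 320988 CPM in hydrogel libraries, 25722 to 270663 CPM in aspirin libraries and 102296 to 227162 CPM in control libraries, all 12 markers being detected. Aspirin replicate 1 stood apart with the lowest of these sums, 25722 CPM. In whole tissue, fewer muscle fibres and less RNA per fibre cannot be told apart.

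As background, complexes I and II pass electrons from NADH and succinate to ubiquinone, complex III passes them on to cytochrome c, and complex IV passes them to oxygen. Complexes I, III and IV pump protons, and complex V, the ATP synthase, uses the gradient to make ATP. Mitochondrial DNA encodes membrane-embedded core subunits of complexes I, III, IV and V and is transcribed from both strands as long precursors that are cut at tRNAs. All other subunits, including the whole of complex II, are nuclear genes whose proteins are imported. Muscle is rich in these complexes, and oxidative fibres hold more of them than glycolytic ones.

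Messages of the mitochondrial genes were far more abundant per length than those of their nuclear partners. The deposited FPKM, a level corrected for gene length and depth, was the only scale used here between genes. On it the 15 mitochondrial genes had a median of 5460.5 and the 84 nuclear genes a median of 68.0. Each gene was averaged over the 9 libraries. The sources used here do not state the gene length behind these FPKM. All exons annotated in GENCODE vM21 together span 957 bases for mt-Nd1, 4237 for Atp5b and 5628 for Ndufb2. A length of that kind would understate any gene whose main message is shorter. On this scale the mitochondrial range, from 723 for mt-Rnr1 to 21602 for mt-Co1, lay wholly above the nuclear range. The nuclear range ran from 0.418 for Cox6b2 to 468 for Atp5a1. Whether the lowest mitochondrial and the highest nuclear genes stay apart depends on the lengths used, as does the order of the nuclear genes. Other lengths were not tested. mt-Co1, which encodes the catalytic subunit of complex IV, ranked first with 21602 ± 4971 FPKM (SD, n = 9). mt-Cytb, the cytochrome b of complex III, ranked second with 11191 ± 2945 FPKM. This order leaves out the chromosome 1 copies described further on. Those copies held 134.7, 100.4 and 100.3% of the counts of mt-Atp6, mt-Co2 and mt-Co3. mt-Cytb is not among the genes with such a copy, so its rank above them depends on how reads were assigned. Neighbours further down the order, such as mt-Co3 (7675 ± 996 FPKM) and mt-Co2 (7414 ± 1024 FPKM), differed by less than their spread. Among nuclear genes, those for the catalytic α and β subunits of the ATP synthase led, Atp5a1 with 468 ± 112 FPKM and Atp5b with 428 ± 101 FPKM.

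The balance between the genomes differed most between the groups given aspirin with and without hydrogel. Summed mitochondrial counts were 8.25, 7.85 and 8.84 times the summed nuclear counts in the 3 hydrogel libraries, 5.98, 4.73 and 5.81 times in the 3 aspirin libraries and 6.17, 8.58 and 4.94 times in the 3 control libraries. Every hydrogel library therefore lay above every aspirin library, while the control libraries spread over both ranges. The means were 8.32 ± 0.498 in hydrogel libraries, 5.51 ± 0.676 in aspirin libraries and 6.56 ± 1.85 in control libraries (SD, n = 3 each). No test was made of this sum over chosen genes.

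The parts of that ratio moved differently across libraries. Mitochondrial genes took 14.1, 11.3 and 11.9% of all counts in hydrogel libraries, 7.64, 8.15 and 8.69% in aspirin libraries and 10.2, 14.7 and 8.96% in control libraries. Hydrogel values again lay above all aspirin values, and Control replicate 2 was the highest library of all. Nuclear genes took 1.71, 1.44 and 1.34% in hydrogel libraries, 1.28, 1.72 and 1.50% in aspirin libraries and 1.65, 1.71 and 1.81% in control libraries. The nuclear shares of hydrogel and aspirin libraries overlapped.

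**Figure D1:**
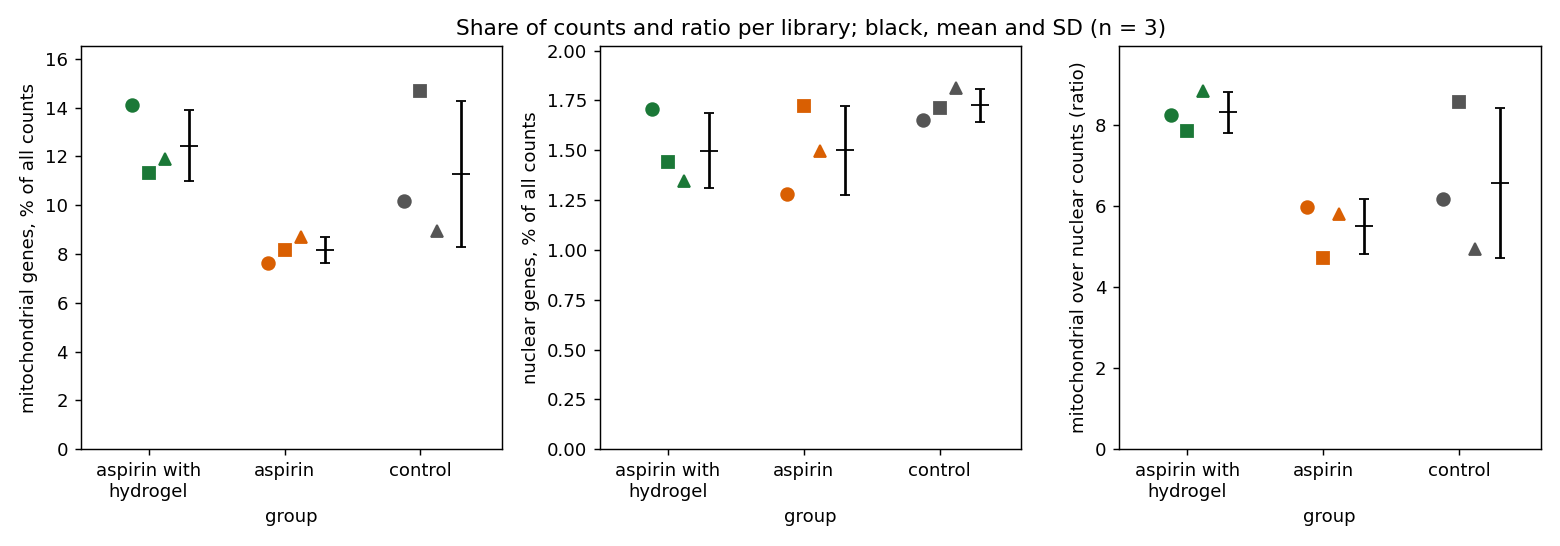
Share of all counts taken by the 15 mitochondrial and the 84 nuclear respiratory chain genes (percent) and the ratio of their summed counts, per library and group; circles, squares and triangles are replicates 1, 2 and 3, and black marks are the mean and SD of 3 libraries. The ratio ran from 7.85 to 8.84 in hydrogel libraries, 4.73 to 5.98 in aspirin libraries and 4.94 to 8.58 in control libraries.

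Each complex that draws on both genomes was also taken alone. The mean FPKM per mitochondrial gene was set over the mean FPKM per nuclear gene of the same library. These ratios compare libraries within a complex, and their sizes are not on one footing between complexes. Chromosome 1 copies, described further on, hold counts for mitochondrial genes of complexes I, IV and V but not for mt-Cytb. The limit on gene length given above also holds here. For complex I this ratio was 95.8, 102 and 115 in hydrogel libraries, 50.2, 46.4 and 70.0 in aspirin libraries and 75.3, 109 and 56.0 in control libraries. For complex III, whose mitochondrial part is mt-Cytb alone, it was 96.0, 94.4 and 105 in hydrogel libraries, 47.3, 50.8 and 72.4 in aspirin libraries and 69.1, 101 and 56.0 in control libraries. For complex IV it was 143, 146 and 171 in hydrogel libraries, 94.6, 81.8 and 109 in aspirin libraries and 106, 154 and 95.7 in control libraries. In all 3 of these complexes the hydrogel and aspirin libraries did not overlap. Complex V gave 84.0, 79.8 and 88.7 in hydrogel libraries, 33.7, 27.5 and 66.8 in aspirin libraries and 56.3, 87.4 and 26.0 in control libraries, also without overlap between hydrogel and aspirin, and there the mt-Atp6 counts described further on weigh on 3 libraries.

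Gene by gene, the mitochondrial genes lay higher in hydrogel than in aspirin libraries, but none passed the test over all genes. All 15 had a positive log2 fold change of hydrogel over aspirin, from 0.31 to 1.54 with a median of 1.01, while 46.7% of the 18259 genes tested were higher and their median was -0.05. With library size alone the median was 0.63 for the 15 and -0.51 for all genes. By edgeR's quasi-likelihood test 0 of 15 passed an adjusted p of 0.05, as did 0% of all genes, and the smallest adjusted p was 0.453. At an unadjusted p under 0.05 there were 2 of 15, mt-Nd5 and mt-Nd4l, both higher, beside 3.32% of all genes. Over the 99 genes and either direction there were also 2, beside 10.9% of all genes. The count of the 99 was 0 without Hydrogel replicate 3, 1 without Aspirin replicate 2 and 10 without Aspirin replicate 3, where 4.7, 9.96 and 22% of all genes were at that level. DESeq2 called mt-Nd5 (adjusted p = 0.0401) and no other respiratory chain gene, beside 0.887% of all genes, and limma-voom called 0. For 8 of the 15 the 3 hydrogel values lay above the 3 aspirin values, beside 7.46% of all genes; these were mt-Nd2, mt-Nd4, mt-Nd4l, mt-Nd5, mt-Nd6, mt-Cytb, mt-Co1 and mt-Atp8.

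mt-Nd5, which encodes a proton-pumping subunit at the far end of the membrane arm of complex I, had 9783, 9929 and 13317 CPM in hydrogel libraries, 2412, 3618 and 5910.3 CPM in aspirin libraries and 5950.5, 11477 and 6458 CPM in control libraries. Library sizes behind these CPM were scaled by the trimmed mean of M-values (TMM). All hydrogel values were above all aspirin values, and Control replicate 2 reached the hydrogel range. The log2 fold change of hydrogel over aspirin was 1.47 ± 0.54 (SE; adjusted p = 0.453, edgeR). mt-Nd5 was also the mitochondrial gene whose aspirin values all lay below the control values, with a log2 fold change of aspirin over control of -1.0 ± 0.53 (adjusted p = 0.761).

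Further complex I genes of mitochondrial DNA also lay higher in hydrogel than in aspirin libraries. mt-Nd4l, a small membrane subunit, had 1525, 1425 and 2287 CPM in hydrogel libraries, 348, 672 and 1029 CPM in aspirin libraries and 762, 1602 and 897 CPM in control libraries, a log2 fold change of hydrogel over aspirin of 1.35 ± 0.51 (adjusted p = 0.453, edgeR). mt-Nd2, another subunit of the membrane arm, had 7329, 6789.8 and 10764 CPM in hydrogel libraries, 1702, 3726 and 5007 CPM in aspirin libraries and 4295, 8759.6 and 5516 CPM in control libraries. Hydrogel and aspirin values did not overlap for either gene, and Aspirin replicate 1 was the lowest library for both. mt-Nd6 is the only protein gene on the light strand of mitochondrial DNA, here at chrM:13552-14070 on the minus strand of mm10. It had 3820.3, 3094 and 3518 CPM in hydrogel libraries, 1212, 1622 and 2337 CPM in aspirin libraries and 2297, 4508 and 2753 CPM in control libraries. Its log2 fold change of hydrogel over aspirin was 1.01 ± 0.45, the median of the 15 genes, beside 1.06 ± 0.54 for mt-Nd4 and 0.89 ± 0.53 for mt-Nd1, further membrane subunits. The ratio of mt-Nd6 to mt-Nd5 counts was 0.391, 0.312 and 0.264 in hydrogel libraries, 0.503, 0.448 and 0.395 in aspirin libraries and 0.386, 0.393 and 0.426 in control libraries, the 3 aspirin values lying above the 3 hydrogel values. The sources used here do not say whether counting used strand, and the 2 genes share 14 bases.

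The mitochondrial genes of complexes III and IV had log2 fold changes of hydrogel over aspirin under 1. mt-Cytb had 20557, 15686 and 22122 CPM in hydrogel libraries, 5394, 10296 and 13946 CPM in aspirin libraries and 10603, 21026 and 13697 CPM in control libraries, a log2 fold change of hydrogel over aspirin of 0.98 ± 0.56. mt-Co1 had 51110.3, 38737 and 54875 CPM in hydrogel libraries, 18478, 26453 and 32206 CPM in aspirin libraries and 29044, 55426 and 37048 CPM in control libraries, a log2 fold change of 0.91 ± 0.57. Neither overlapped between hydrogel and aspirin. mt-Co2, which takes electrons from cytochrome c, had 7232, 5385 and 7439 CPM in hydrogel libraries and 3215, 4649 and 5675 CPM in aspirin libraries, which overlapped, with a log2 fold change of 0.57 ± 0.45. mt-Co3, the remaining mitochondrial gene of complex IV, gave 0.55 ± 0.45, and the smallest of the 15 was mt-Nd3 of complex I with 0.31 ± 0.32, also with overlap. Single genes also shifted against each other within libraries: mt-Nd5 counts were 1.13, 1.56 and 1.40 times the mt-Co3 counts in hydrogel libraries, 0.565, 0.561 and 0.980 times in aspirin libraries and 1.22, 1.45 and 0.932 times in control libraries. These ratios do not depend on library scaling, and Aspirin replicates 1 and 2 gave the lowest of the 9.

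**Figure D2:**
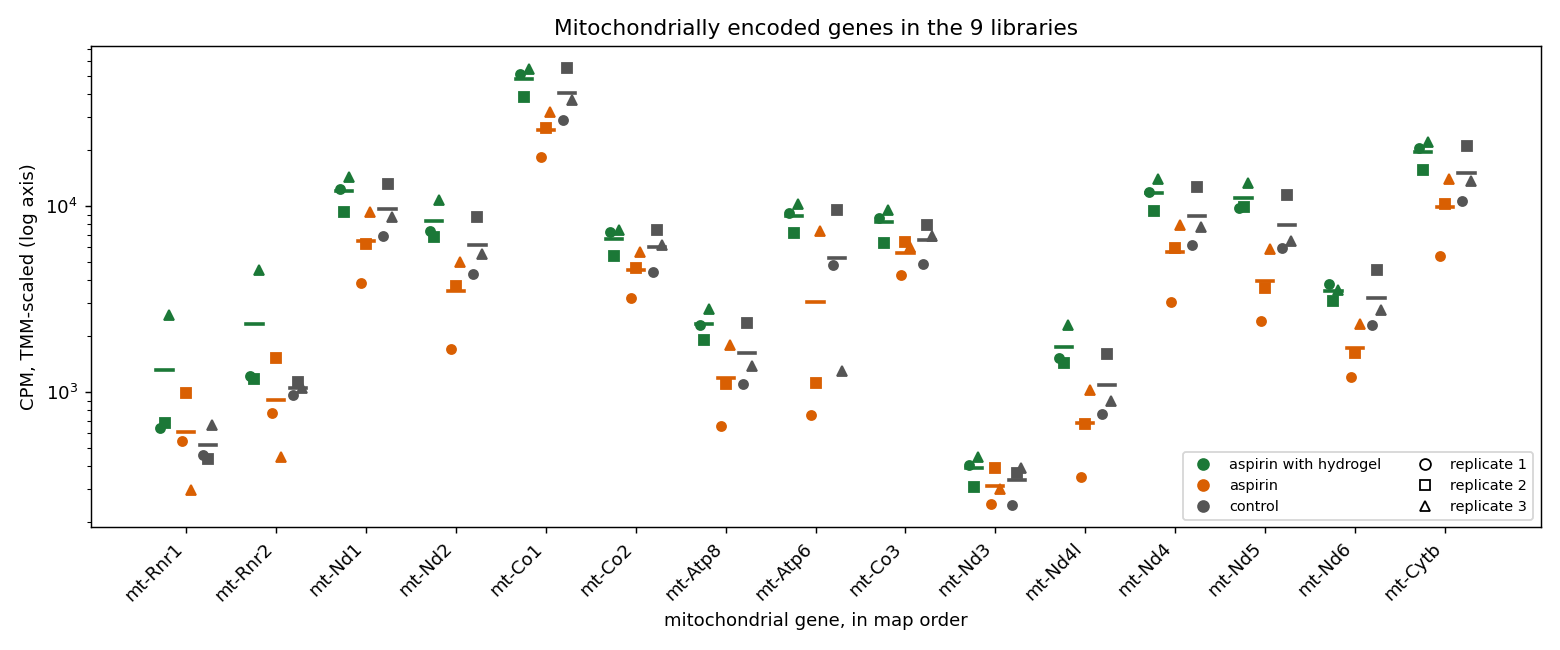
Levels of the 15 mitochondrial genes in the 9 libraries (TMM-scaled CPM, log axis) by gene and group; points are libraries and short lines are means of 3. For mt-Nd5 the hydrogel points lie at 9783 CPM and above and the aspirin points at 5910.3 CPM and below, and mt-Atp6 splits into 3 libraries of 752 to 1304 CPM and 6 of 4840.2 CPM and above.

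The comparisons with untreated muscle share the control libraries. Over control, hydrogel libraries had a median log2 fold change of 0.41 with 15 of 15 genes positive, beside 47.1% of all genes and a median of -0.03 for them. Only mt-Rnr2 did not overlap between hydrogel and control, being higher, beside 6.85% of all genes, and 0 of 15 had an unadjusted p under 0.05 by edgeR beside 3.92% of all genes. No gene of the 15 was called by edgeR (0% of all genes), limma-voom or DESeq2 (0.0997%). The median depended on single libraries: leaving out Control replicate 1 gave 0.21, Hydrogel replicate 3 0.18 and Control replicate 2 0.75. Aspirin libraries had a median log2 fold change of -0.61 over control with 14 of 15 genes negative, mt-Rnr1 being the exception, beside 46% of all genes and a median of 0.05 for them. Here mt-Nd5 was the single gene without overlap, beside 5.44% of all genes, and 0 of 15 had an unadjusted p under 0.05 by edgeR beside 6.48% of all genes. None of the 15 was called by edgeR (0% of all genes), limma-voom or DESeq2 (0.57%). That median was -0.32 without Aspirin replicate 1 and -0.28 without Control replicate 2.

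Markers of several cell types had shifted medians in aspirin over control as well. The 6 endothelial markers had a median log2 fold change of -1.18, all 6 lower at an unadjusted p under 0.05 beside 3.39% of all genes, and 5 lay without overlap below control beside 5.44%. The 6 adipocyte markers had a median of -1.37 with all lower, 3 of them at that level. All 11 slow and oxidative fibre markers were negative (median -0.88), and the 9 macrophage markers tested were all positive (median 0.97). In hydrogel over control 0 of the 11 slow and oxidative and 0 of the 6 endothelial markers were higher (medians -0.69 and -0.46). Other medians there were -0.76 for adipocyte, -0.06 for macrophage, -2.07 for neutrophil, -2.24 for erythroid and -0.44 for fibroblast markers. Skeletal muscle fibre and fast glycolytic fibre markers had medians of 0.44 and 0.38 there. None passed the adjusted threshold by edgeR, and their part in the mitochondrial values was not tested.

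The mitochondrial ribosomal RNAs followed another order than the messages. mt-Rnr2, the large ribosomal RNA, had 1219, 1182 and 4539 CPM in hydrogel libraries, 768, 1519 and 448 CPM in aspirin libraries and 968, 1137 and 1053 CPM in control libraries. Hydrogel replicate 3 was far above the rest and Aspirin replicate 3 the lowest. mt-Rnr1, the small ribosomal RNA, had 643, 683 and 2604 CPM in hydrogel libraries, 544, 993 and 297 CPM in aspirin libraries and 460.1, 437 and 664 CPM in control libraries, with the same libraries at the ends. The log2 fold change of hydrogel over control was 1.33 ± 0.66 for mt-Rnr1 and 1.14 ± 0.65 for mt-Rnr2 (adjusted p = 0.987 for both, edgeR), and without Hydrogel replicate 3 that of mt-Rnr2 was 0.17. Per 1000 mitochondrial message counts there were 12.7, 16.1 and 43.1 ribosomal counts in hydrogel libraries, 28.7, 34.7 and 7.54 in aspirin libraries and 17.5, 10.1 and 17.3 in control libraries. The labels name the kit as one for mRNA, and how it captured ribosomal RNA in each library was not tested.

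For 7 mitochondrial genes the reads could not be assigned with certainty, because mouse chromosome 1 holds a nuclear copy of that stretch of mitochondrial DNA. In GENCODE vM21 on mm10 the copies of mt-Co1, mt-Co2, mt-Atp6, mt-Co3, mt-Nd3, mt-Nd4l and mt-Nd4 are annotated as unprocessed pseudogenes with counts of their own. Copies took 2.47 to 3.79% of all counts. For mt-Co2, mt-Co3, mt-Nd3 and mt-Nd4l the gene and its copy had almost equal counts, with gene over copy ratios of 0.993 to 1.02 over the 9 libraries. With the copies added to their genes, an alternative chosen after seeing the data, the mitochondrial to nuclear ratio was 10.5, 9.87 and 11.0 in hydrogel libraries, 8.05, 6.27 and 7.46 in aspirin libraries and 7.82, 10.8 and 6.40 in control libraries. Hydrogel and aspirin libraries still did not overlap.

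mt-Atp6, for which the libraries fell into separate levels, encodes subunit a of the ATP synthase, the channel through which protons return. It lies at chrM:7927-8607 on the plus strand of mm10. Its first 43 bases are shared with the end of mt-Atp8, another ATP synthase subunit, and all 678 bases of its copy Gm10925 (chr1:24613974-24614651, minus strand) are identical to it. The opening 60 bases of both are shown from GENCODE transcripts, at chrM:7927-7986 and chr1:24614592-24614651, because reads from them cannot be told apart; capitals mark the bases shared with mt-Atp8.
mt-Atp6: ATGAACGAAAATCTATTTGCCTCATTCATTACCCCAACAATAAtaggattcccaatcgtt
Gm10925: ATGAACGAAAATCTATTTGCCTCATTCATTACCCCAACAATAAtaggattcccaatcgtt

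mt-Atp6 had 9238, 7186 and 10229 CPM in hydrogel libraries, 752, 1119 and 7314 CPM in aspirin libraries and 4840.2, 9588 and 1304 CPM in control libraries. Aspirin replicates 1 and 2 and Control replicate 3 were far below the other 6 libraries. The copy Gm10925 had 9937, 7679 and 11028 CPM in hydrogel libraries, 3821, 5879 and 7729 CPM in aspirin libraries and 5385, 10188 and 6882 CPM in control libraries, with no such gap. In the 3 low libraries mt-Atp6 had 0.197, 0.190 and 0.190 times the counts of its copy, whereas the other 6 lay from 0.899 to 0.946. mt-Atp8, which lies on the same transcript, gave a log2 fold change of hydrogel over aspirin of 0.97 ± 0.50. Relative to it, mt-Atp6 had 1.14, 1.01 and 0.948 times the counts in these libraries and 3.65 to 4.36 times in the others. The low libraries belong to both the aspirin and the control group, and what sets them apart was not tested. The log2 fold change of hydrogel over aspirin, 1.54 ± 0.97 (adjusted p = 0.524, edgeR), is the largest of the 15 but rests on this split: Aspirin replicate 3, at 7314 CPM, lay within the hydrogel range. Without mt-Atp6, likewise chosen after seeing the data, the mitochondrial to nuclear ratio was 7.73, 7.37 and 8.32 in hydrogel libraries, 5.88, 4.66 and 5.38 in aspirin libraries and 5.81, 8.06 and 4.88 in control libraries.

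**Figure D3:**
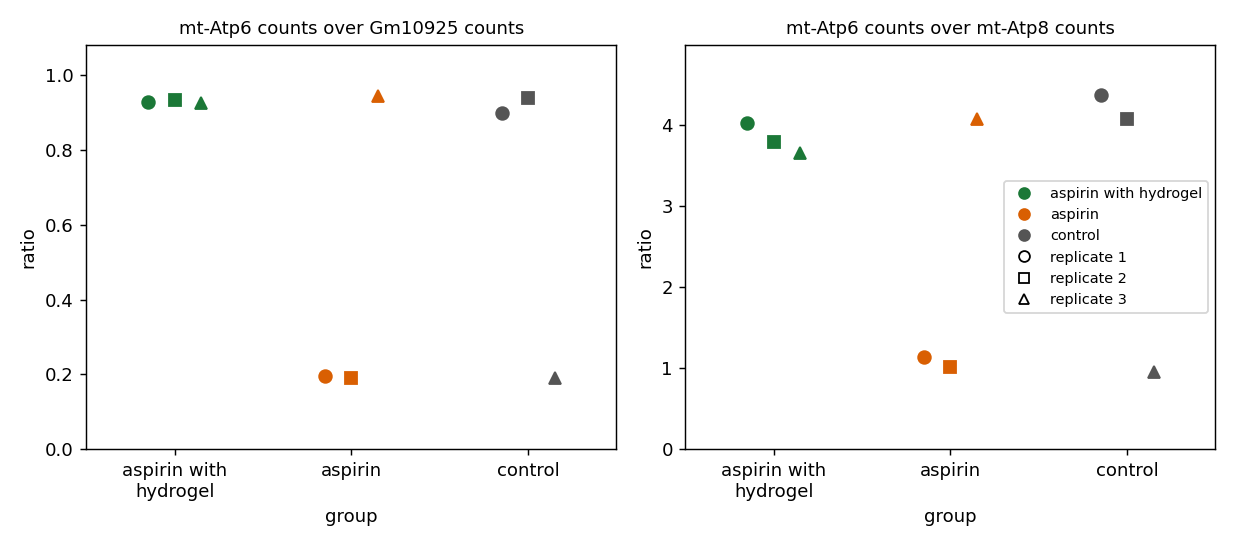
Counts of mt-Atp6 divided by counts of its chromosome 1 copy Gm10925 (left) and of mt-Atp8 (right), per library and group. The 3 hydrogel libraries lie together, whereas Aspirin replicates 1 and 2 and Control replicate 3 lie near 0.190 on the left and near 1.01 on the right.

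The 84 nuclear genes lay closer to no difference, and none was called. Hydrogel over aspirin had a median log2 fold change of 0.14 with 57 of 84 positive, 0 of 84 at an unadjusted p under 0.05 by edgeR beside 10.9% of all genes, and 0 called by edgeR, DESeq2 or limma-voom, and 5 without overlap, all higher, beside 7.46% of all genes. Hydrogel over control had a median of -0.05 with 30 of 84 positive and 1 gene, Cox6b2, at an unadjusted p under 0.05 and lower, beside 2.18% of all genes; 0 were called by any of the 3 tools, and 2 did not overlap, both lower, beside 6.3%. Aspirin over control had a median of -0.22 with 69 of 84 negative, 0 at an unadjusted p under 0.05 by edgeR beside 6.48% of all genes, and 0 called by the 3 tools. Of the 99 genes, 6 were at that level without Aspirin replicate 3 and 2 without Aspirin replicate 2, beside 14.2 and 6.26% of all genes. In aspirin over control 5 nuclear genes did not overlap, all lower, beside 5.44%. Each of these nuclear medians depended on few libraries. The one over aspirin was -0.07 without Aspirin replicate 1, 0.32 without Aspirin replicate 2 and -0.23 when scaled by library size only, which moved the median of all genes to -0.51. For aspirin over control it was -0.02 without Aspirin replicate 1, -0.02 without Control replicate 3 and -0.01 with library size alone, where the median of all genes was 0.27. For hydrogel over control, leaving out Control replicate 1 gave -0.23, Control replicate 3 0.13 and Hydrogel replicate 2 0.07.

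The mitochondrial median minus the nuclear median was 0.87 for hydrogel over aspirin. A change of library scaling moves both medians alike, so it has no bearing on this difference. Over the libraries left out it ran from 0.70 without Aspirin replicate 2 to 1.08 without Aspirin replicate 3. It was 0.46 for hydrogel over control, with 0.22 without Control replicate 3 and 0.80 without Control replicate 2. For aspirin over control it was -0.39, and close to 0 at -0.06 without Control replicate 2, while it was -0.65 without Control replicate 3. These differences of medians carry no test.

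**Figure D4:**
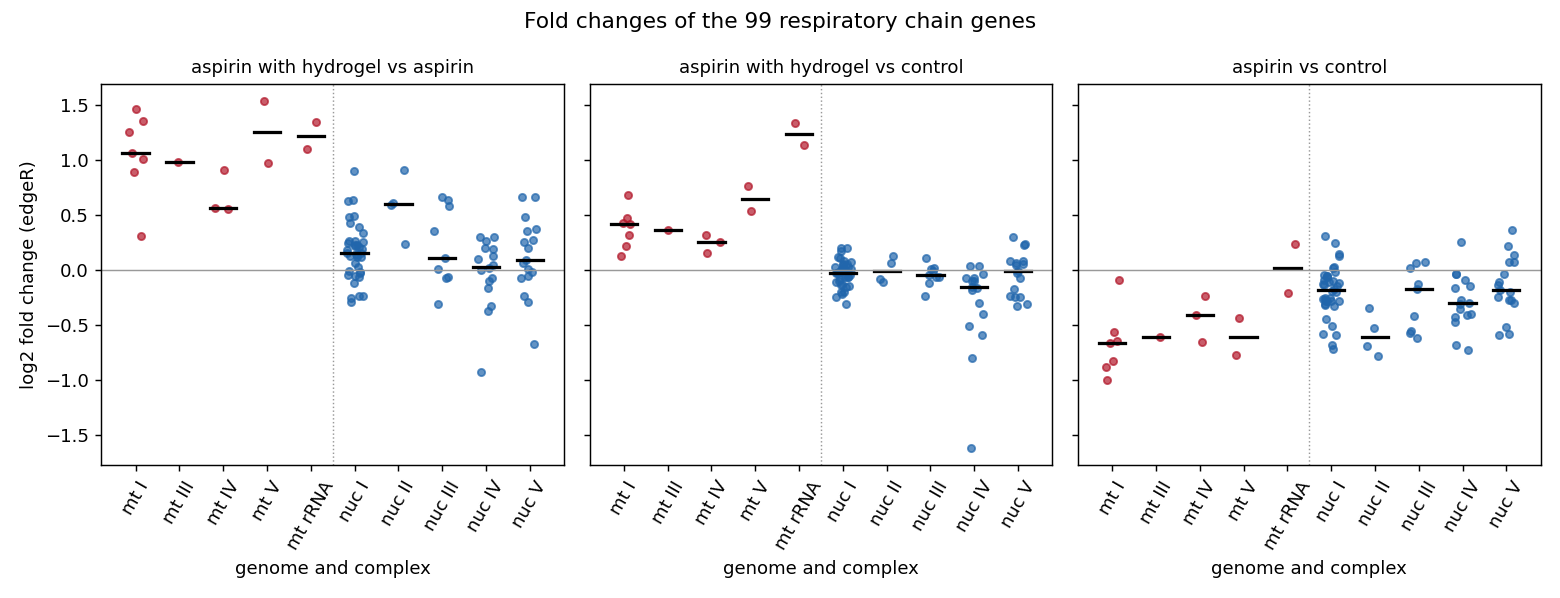
log2 fold changes (edgeR) of the 99 genes in the 3 comparisons, by genome (mt, mitochondrial; nuc, nuclear) and complex; dots are genes and black lines medians. For hydrogel over aspirin the mitochondrial genes lie from 0.31 to 1.54 and the nuclear genes from -0.93 to 0.91, with complex II highest among the nuclear groups.

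Complex II, which is wholly nuclear, had the highest median among the nuclear complexes in hydrogel over aspirin. Its 4 genes had a median log2 fold change of 0.60, of 0.29 without Aspirin replicate 1 and of 0.26 with library size alone, and Sdha, Sdhb and Sdhc did not overlap between these groups, beside 7.46% of all genes. Sdha, the flavoprotein that oxidises succinate, had 848, 815 and 1192 CPM in hydrogel libraries, 152, 553 and 815 CPM in aspirin libraries and 649, 1048 and 919 CPM in control libraries, a log2 fold change of hydrogel over aspirin of 0.91 ± 0.56 (adjusted p = 0.519, edgeR). Aspirin replicate 1 was far below the other 8 libraries, while Hydrogel replicate 2 and Aspirin replicate 3 were almost equal at 815.3 and 814.9 CPM. Sdhb, the iron-sulphur subunit, had 268, 251 and 300.3 CPM in hydrogel libraries, 95.6, 208 and 241 CPM in aspirin libraries and 192, 294 and 298 CPM in control libraries. The membrane anchors Sdhc and Sdhd gave log2 fold changes of 0.61 ± 0.38 and 0.23 ± 0.30, Sdhd with overlap.

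In complex I, core subunits stood above accessory ones in hydrogel over aspirin. The 7 nuclear core genes had a median log2 fold change of 0.48 with 7 positive, and the 31 accessory genes a median of 0.14 with 20 positive. Without Aspirin replicate 1 these medians were 0.11 and -0.10, and with library size alone 0.14 and -0.23. Ndufs1, the largest iron-sulphur subunit, had 404, 359.9 and 513 CPM in hydrogel libraries, 98.2, 257 and 332 CPM in aspirin libraries and 298, 436 and 398 CPM in control libraries, and was the only nuclear complex I gene without overlap in this comparison (log2 fold change 0.90 ± 0.44, adjusted p = 0.465, edgeR). Ndufv1, which binds the flavin that accepts electrons from NADH, had 146, 114 and 161 CPM in hydrogel libraries, 44.3, 104 and 125 CPM in aspirin libraries and 109.7, 152 and 178 CPM in control libraries, with overlap. The accessory subunit Ndufa10 gave 0.64 ± 0.43. Ndufa3, Ndufc2 and Ndufa6, the complex I genes of smallest p in hydrogel over control, gave -0.32, -0.24 and 0.20 there, with standard errors of 0.25 to 0.30. Ndufa4l2, known as a hypoxia-inducible relative of Ndufa4, had 8.68, 5.23 and 5.67 CPM in hydrogel libraries, 3.32, 5.95 and 5.72 CPM in aspirin libraries and 9.02, 6.28 and 7.30 CPM in control libraries. All its aspirin values lay below its control values (log2 fold change -0.59 ± 0.33, adjusted p = 0.761), while Ndufa4 itself gave 0.02 ± 0.30.

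The 9 nuclear genes of complex III had a median of 0.11 for hydrogel over aspirin, -0.05 without Aspirin replicate 1 and -0.30 with library size alone. Uqcrfs1, the Rieske iron-sulphur protein, had 341, 274 and 378 CPM in hydrogel libraries, 110.1, 269 and 260.3 CPM in aspirin libraries and 241, 369 and 373 CPM in control libraries, without overlap between hydrogel and aspirin (log2 fold change 0.63 ± 0.39, adjusted p = 0.519, edgeR). The core proteins Uqcrc1 and Uqcrc2 gave 0.66 ± 0.50 and 0.58 ± 0.37, with overlap. The small subunits Uqcrq and Uqcrb gave -0.31 ± 0.29 and 0.00 ± 0.32 there, and -0.24 ± 0.29 and -0.12 ± 0.32 for hydrogel over control.

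The 17 nuclear genes of complex V had a median of 0.09 for hydrogel over aspirin, -0.08 without Aspirin replicate 1 and -0.27 with library size alone. The catalytic genes Atp5a1 and Atp5b gave 0.66 ± 0.54 and 0.67 ± 0.55 for hydrogel over aspirin, Atp5c1 of the central stalk 0.48 ± 0.33, and Atp5e, the smallest part of that stalk, -0.67 ± 0.43. Atp5e had 95.7, 85.7 and 112 CPM in hydrogel libraries, 145, 226 and 96.5 CPM in aspirin libraries and 101, 68.3 and 195 CPM in control libraries, overlapping in every comparison. Atp5g1, Atp5g2 and Atp5g3 encode the same ring subunit with different import sequences; they gave -0.30, 0.07 and -0.52 for aspirin over control and 0.06, -0.02 and 0.27 for hydrogel over aspirin. Atp5j2 and Atp5s gave -0.33 and 0.24 for hydrogel over control. Atp5g1 and Atp5g2 have near-identical pseudogenes or copies that hold counts of their own, as do Atp5h, Cox7c and Ndufb4, so their levels are uncertain. The list is not complete: Ndufc1, Ndufb2, Cox6c, Ndufv3, Ndufb11 and Atp5l, among others, also share near-identical stretches with other genes or pseudogenes that hold counts.

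On TMM-scaled CPM, Aspirin replicate 1 was the lowest of 9 libraries for 58 of 84 nuclear genes and 12 of 13 mitochondrial messages. It also had the lowest fibre marker sum. Control replicate 3 was the highest for 47 nuclear genes, and Hydrogel replicate 3 for 10 mitochondrial messages. These ranks depend on the scaling, whose TMM factor was highest in Aspirin replicate 1 (1.63) and lowest in Hydrogel replicate 3 (0.688). As shares of all counts, the values of Aspirin replicate 1 were closer to the next lowest library. Mitochondrial genes took 7.64% there, beside 8.15% in Aspirin replicate 2, and nuclear genes 1.28%, beside 1.34% in Hydrogel replicate 3. Relative to the mean of the other 8 libraries on the log2 CPM scale, Aspirin replicate 1 lay at a median of -1.52 for complex II, -1.37 for the nuclear core of complex I and -1.41 for mitochondrial messages, but at -0.36 for nuclear complex IV genes averaging at least 1 CPM. Sdha was the nuclear gene furthest below, at -2.45, and Cox7a2l the furthest above, at 0.67. The median pooled within-group SD was 0.52 for the 15 mitochondrial genes and 0.40 for the 83 nuclear genes at that level (log2 CPM).

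Most nuclear genes of complex IV had negative log2 fold changes over control in both treated groups, and none was called. Hydrogel over control had a median log2 fold change of -0.16 over its 16 genes with 14 negative, and aspirin over control a median of -0.31 with 15 negative. These medians were -0.02 without Hydrogel replicate 2, 0.01 without Control replicate 3 and -0.37 with library size alone for hydrogel, and for aspirin -0.12 without Aspirin replicate 1, -0.15 without Control replicate 3 and -0.09 with library size alone. Without overlap below control lay 5 of the 84 nuclear genes in aspirin libraries, 4 of them of complex IV, and 2 in hydrogel libraries, both of complex IV; over all genes these shares were 5.44 and 6.3%, so neither count of 84 stands out from all genes. Cox4i2, the form of subunit IV known from lung and hypoxic cells, had 1.55, 1.60 and 1.44 CPM in hydrogel libraries, 1.64, 2.25 and 0.943 CPM in aspirin libraries and 2.79, 2.39 and 2.85 CPM in control libraries. All treated values lay below all control values, with log2 fold changes of -0.81 ± 0.38 for hydrogel (adjusted p = 0.987) and -0.73 ± 0.38 for aspirin (adjusted p = 0.754, edgeR). Cox6b2, known as the testis form of subunit VIb, was near the limit of counting, with 0.339, 0.363 and 0.0667 CPM in hydrogel libraries, 0.515, 0.656 and 0.314 CPM in aspirin libraries and 0.924, 0.692 and 0.785 CPM in control libraries, and a log2 fold change of hydrogel over control of -1.62 ± 0.64 (unadjusted p = 0.0327, adjusted p = 0.987). The widespread forms Cox4i1 and Cox6b1 gave -0.30 ± 0.33 and -0.10 there.

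Subunits VIa, VIIa and VIII of complex IV each have a heart and muscle form and a widespread form, and their ratio in FPKM is free of library scaling. Cox7a1 over Cox7a2, muscle over widespread form, was 1.09, 1.43 and 1.53 in hydrogel libraries, 0.613, 1.03 and 0.871 in aspirin libraries and 1.35, 1.45 and 1.46 in control libraries. Every aspirin value lay below every hydrogel and every control value, while the single genes overlapped: aspirin over control gave -0.48 ± 0.33 for Cox7a1 and 0.26 ± 0.27 for Cox7a2. Cox6a2 over Cox6a1 was 5.39, 6.90 and 15.8 in hydrogel libraries, 2.46, 6.07 and 10.8 in aspirin libraries and 3.80, 4.39 and 6.83 in control libraries, with overlap between all groups. Cox8b over Cox8a was 2.83, 3.47 and 6.48 in hydrogel libraries, 1.91, 3.74 and 3.54 in aspirin libraries and 2.08, 2.55 and 3.81 in control libraries, likewise with overlap. Of the widespread forms, Cox6a1 and Cox8a did not overlap between aspirin and control, being lower in aspirin libraries, with log2 fold changes of -0.43 ± 0.34 and -0.40 ± 0.34 (adjusted p = 0.803 and 0.812, edgeR). Cox7a2l, known for a role in joining complexes III and IV, gave -0.37 ± 0.29 for hydrogel over aspirin.

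**Figure D5:**
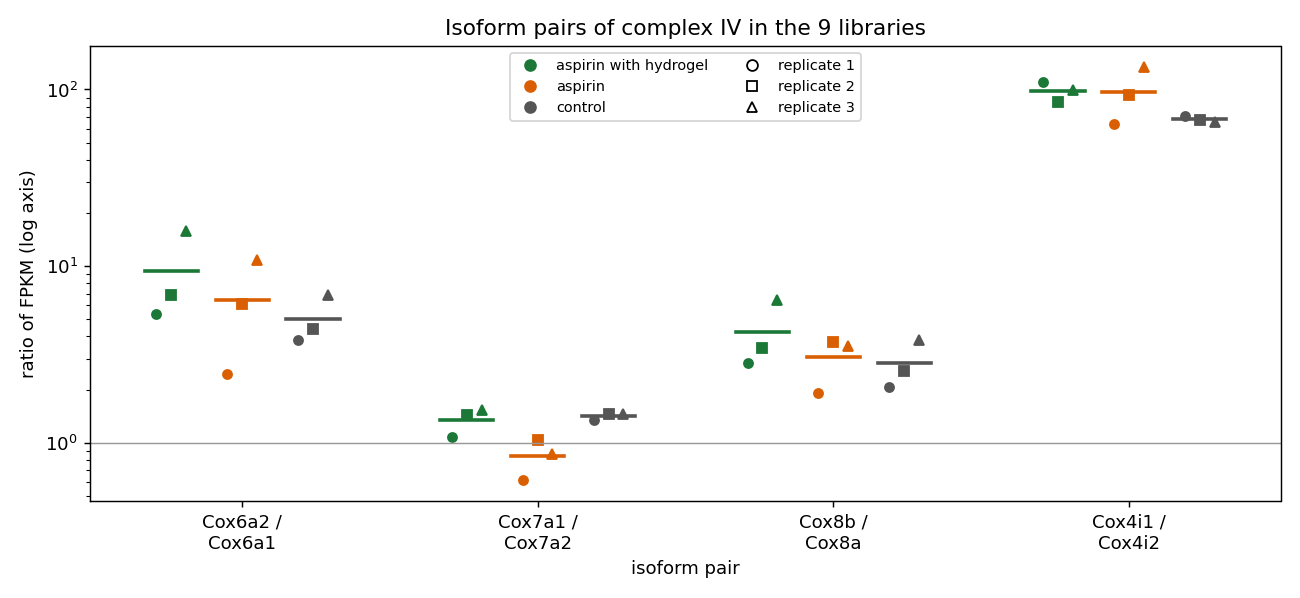
Ratio of FPKM of muscle over widespread isoforms of complex IV subunits, and of Cox4i1 over Cox4i2, per library (log axis); points are libraries, short lines means of 3. Only Cox7a1 over Cox7a2 has all aspirin points below all hydrogel and control points; Cox4i1 over Cox4i2 has all hydrogel points above all control points.

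Promoters of the nuclear respiratory chain genes were searched for motifs of known regulators of mitochondrial and muscle genes. RefSeq sequences (GRCm38.p6) from 250 bases before to 50 bases after the start were at hand for 66 of the 84 nuclear genes and for 27025 genes in all, and motifs were searched on both strands. The NRF1 motif (GCGCA, any base, then GCGC) was in 17 of 66 (25.8%), beside 5.19% of all genes. The ETS motif CCGGAAG, bound by GABPA, was in 16 (24.2%, beside 9.93%), the YY1 motif GCCATNTT in 16 (24.2%, beside 6.96%) and the oestrogen-related receptor motif AAGGTCA in 8 (12.1%, beside 5.38%). The muscle E-box CAGCTG was in 6 (9.09%, beside 18.3%), and the MEF2 motif in 0 of 66, beside 3.70%. A match is a run of letters and not a shown binding site.

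Promoters of 4 genes are shown with all of these motifs in capitals: Sdha and Sdhb, nuclear genes without overlap between hydrogel and aspirin, and the isoform pair Cox8b and Cox8a. They lie at chr13:74350191-74350490 (minus strand), chr4:140961021-140961320 (plus strand), chr7:140900397-140900696 (minus strand) and chr19:7217567-7217866 (minus strand). The Sdha window holds the NRF1 motif 3 times, and the Sdhb window the ETS motif once. The muscle form Cox8b has the E-box at 2 places and none of the other motifs, whereas the widespread form Cox8a has the ETS motif at 2 places, on the opposite strand (read here as CTTCCGG), and none of the others. No 2 motifs overlap in these windows.
Sdha: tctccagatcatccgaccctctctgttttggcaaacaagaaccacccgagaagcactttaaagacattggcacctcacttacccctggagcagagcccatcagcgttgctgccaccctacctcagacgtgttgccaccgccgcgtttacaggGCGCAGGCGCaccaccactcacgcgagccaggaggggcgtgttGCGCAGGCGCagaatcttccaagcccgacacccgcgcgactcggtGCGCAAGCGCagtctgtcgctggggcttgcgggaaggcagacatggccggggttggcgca
Sdhb: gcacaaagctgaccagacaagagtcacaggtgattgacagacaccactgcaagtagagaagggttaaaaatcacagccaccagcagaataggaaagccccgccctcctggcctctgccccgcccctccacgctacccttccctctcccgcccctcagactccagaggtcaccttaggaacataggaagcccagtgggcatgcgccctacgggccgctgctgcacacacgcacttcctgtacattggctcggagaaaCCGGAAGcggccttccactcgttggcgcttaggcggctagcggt
Cox8b: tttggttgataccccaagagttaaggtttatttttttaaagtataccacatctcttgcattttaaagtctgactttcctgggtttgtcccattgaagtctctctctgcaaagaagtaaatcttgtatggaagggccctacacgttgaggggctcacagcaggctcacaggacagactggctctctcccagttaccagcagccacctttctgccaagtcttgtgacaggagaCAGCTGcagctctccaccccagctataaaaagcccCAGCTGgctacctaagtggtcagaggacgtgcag
Cox8a: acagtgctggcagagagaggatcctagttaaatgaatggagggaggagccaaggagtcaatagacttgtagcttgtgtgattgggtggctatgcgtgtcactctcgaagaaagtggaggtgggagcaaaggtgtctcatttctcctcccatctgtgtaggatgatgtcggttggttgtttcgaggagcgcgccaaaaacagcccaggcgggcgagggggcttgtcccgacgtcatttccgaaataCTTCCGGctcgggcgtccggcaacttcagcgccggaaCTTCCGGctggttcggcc

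Genes around the respiratory chain were counted in 6 lists, and edgeR called 0 of their genes in any comparison; limma-voom also called 0, and DESeq2 called Idh2 and Esrrg as given below. The citric acid cycle and pyruvate entry list, whose enzymes feed electrons to complexes I and II, is described first. All 19 of its genes were higher in hydrogel over aspirin (median log2 fold change 0.74), beside 46.7% of all genes. Of these, 2 were at an unadjusted p under 0.05 and 9 without overlap, beside 3.32 and 7.46% of all genes, and 0 of 19 were higher in aspirin over control (median -0.60). Without Aspirin replicate 1 these medians were 0.36 and -0.27, and with library size alone 0.46 and -0.48. Idh2, the mitochondrial NADP-dependent isocitrate dehydrogenase, had 256, 161 and 141 CPM in hydrogel libraries, 41.4, 73.3 and 87.1 CPM in aspirin libraries and 163, 243 and 164 CPM in control libraries. Its aspirin values lay below all others, with log2 fold changes of 1.47 ± 0.37 for hydrogel over aspirin and -1.50 ± 0.37 for aspirin over control; the adjusted p was 0.453 and 0.753 by edgeR and 0.0168 and 0.0170 by DESeq2. Suclg2, of the same cycle, gave 0.72 ± 0.30 for hydrogel over aspirin.

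Regulators of mitochondrial biogenesis lay higher in hydrogel over aspirin in 16 of 18 (median 0.54), with 3 at an unadjusted p under 0.05 and 7 without overlap, all higher, beside 3.32 and 7.46% of all genes. The median was 0.23 with library size alone and 0.36 without Aspirin replicate 1. Ppargc1a, the coactivator that drives mitochondrial gene programmes in muscle, had 45.1, 44.2 and 53.2 CPM in hydrogel libraries, 8.89, 25.7 and 33.3 CPM in aspirin libraries and 20.3, 44.6 and 26.9 CPM in control libraries. Hydrogel and aspirin values did not overlap (log2 fold change 1.07 ± 0.46, adjusted p = 0.454, edgeR). Esrrg, a nuclear receptor of oxidative muscle, had 12.5, 12.1 and 18.9 CPM in hydrogel libraries, 3.03, 4.71 and 8.37 CPM in aspirin libraries and 10.1, 11.2 and 10.1 CPM in control libraries, and these groups followed each other without any overlap. Its log2 fold change of hydrogel over aspirin was 1.43 ± 0.37, with an adjusted p of 0.453 by edgeR and 0.0442 by DESeq2. Ppard gave 1.07 ± 0.39, and Pprc1 and Yy1 gave 0.50 ± 0.21 and 0.34 ± 0.18 for hydrogel over control.

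Factors that act directly on mitochondrial DNA and RNA had smaller median differences. Tfam, which packages and activates mitochondrial DNA, had 39.8, 36.8 and 40.5 CPM in hydrogel libraries, 35.6, 35.6 and 38.2 CPM in aspirin libraries and 39.3, 38.9 and 44.6 CPM in control libraries. Polrmt, the mitochondrial RNA polymerase, had 21.4, 22.5 and 28.0 CPM in hydrogel libraries, 13.6, 20.7 and 18.4 CPM in aspirin libraries and 14.0, 15.8 and 22.0 CPM in control libraries, hydrogel values lying above all aspirin values. The list of such genes, 31 of 32 tested, had a median of 0.06 for hydrogel over aspirin (-0.38 with library size alone) with 19 higher and 2, the near-identical termination factors Mterf1a and Mterf1b, lower at an unadjusted p under 0.05, beside 7.61% of all genes. The 78 mitochondrial ribosomal protein genes had a median of 0.03 (-0.38 with library size alone) with 43 positive; 3 were lower at that level, a share below that of all genes. The 49 assembly factors had a median of 0.16 (-0.06 without Aspirin replicate 1 and -0.24 with library size alone) with 31 positive and 0 at that level in either direction. In the assembly list Pet117 gave 1.24 ± 0.55, Coa4 -0.71 ± 0.32 and, over control, Coa7 1.36 ± 0.53. Electron carriers and nucleotide transporters had a median of 0.40 (0.11 without Aspirin replicate 1) with 20 of 21 higher and 0 at that level; Etfdh, which passes electrons from fat oxidation to ubiquinone, gave 0.76 ± 0.34 and the adenine nucleotide carrier Slc25a5 -0.72 ± 0.36.

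Markers of other cell types were compared beside these genes. All 12 fibre markers were higher in hydrogel over aspirin, with a median log2 fold change of 0.66, 0.16 without Aspirin replicate 1, and 0 at an unadjusted p under 0.05. Macrophage markers summed to 583 to 1278 CPM in hydrogel libraries, 1275 to 2854 CPM in aspirin libraries and 636 to 1646 CPM in control libraries; 9 of the 10 passed the filter on low counts, all 9 lower in hydrogel over aspirin, 4 of them at an unadjusted p under 0.05, beside 7.61% of all genes. Neutrophil markers summed to 10.6 to 25.3 CPM in hydrogel libraries, 31.5 to 350.0 CPM in aspirin libraries and 16.5 to 155 CPM in control libraries, and 4 of 6 were lower at that level. Slow and oxidative fibre markers summed to 1205 to 5012 CPM in hydrogel libraries, 1459 to 2417 CPM in aspirin libraries and 3014 to 5717 CPM in control libraries. Median log2 fold changes of hydrogel over aspirin were 0.64 for fast glycolytic fibre, 0.19 for slow and oxidative fibre, 0.64 for endothelial, -0.62 for fibroblast, 0.86 for adipocyte and -2.10 for erythroid markers. For aspirin over control they were -0.17 for fast glycolytic fibre, 1.71 for neutrophil, 0.21 for fibroblast and -0.23 for erythroid markers. Markers of brown fat and heart, other tissues rich in respiratory chain, were low, with sums of 13.2, 2.06 and 0.934 CPM in hydrogel libraries, 1.62, 2.30 and 1.51 CPM in aspirin libraries and 4.29, 24.2 and 6.20 CPM in control libraries. Control replicate 2 and Hydrogel replicate 1, the highest of these, were also the libraries with the highest mitochondrial share of counts. On the CPM scale of the marker sums, however, the mitochondrial genes were highest in Hydrogel replicate 3, at 172817 CPM. That library had the lowest sum of brown fat and heart markers, 0.934 CPM. The 3 of these 5 markers that passed the filter had a median log2 fold change of 1.26 for hydrogel over aspirin, -1.21 for hydrogel over control and -2.70 for aspirin over control. The part that the mix of cells plays in the respiratory chain values was not tested.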

How the data were processed

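Per the protocols in the labels, leg muscle RNA was isolated with an RNeasy kit, and 1 µg of it entered the SMARTER mRNA-Seq library kit. The authors deposited raw counts per Ensembl gene and FPKM per gene for the same 9 samples, both used as deposited. The build is mm10 per the submitters' processing notes, and the sources used here do not name the aligner, counter, gene models, strand setting or handling of reads that map more than once. Rows without a gene name (3225) still carry an Ensembl identifier and were kept. The 99 genes, the related lists and the marker lists were chosen with earlier results of these data known.

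Counts were scaled by TMM, filtered with filterByExpr (minimum count 10 and minimum total count 15) and fitted in edgeR 4.0.16 (R 4.3.3) by robust quasi-likelihood with group as the only term over all 9 libraries. Adjusted p is Benjamini-Hochberg over 18259 genes, with 0.05 as the threshold, and the standard error is the log2 fold change over the root of F. All 99 genes passed the filter, although a low gene could pass through the group where it is high. Library totals ran from 32197791 to 48170537 counts, and the common coefficient of biological variation was 0.503. Every pair of libraries differed by more than sampling noise. DESeq2 1.42.0 and limma-voom 3.58.1 were among the alternatives, besides other scalings, no filter, a replicate block and leaving out each library. The edgeR fit with TMM scaling was checked on simulated data, for the sign of large differences only. The DESeq2 and limma-voom fits, the replicate block and the other scalings were not checked in this way.

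Same-numbered aspirin and control libraries had correlations of their deviations from the group means of 0.540, 0.125 and 0.214 for numbers 1 to 3. This was treated as possible pairing for that comparison, although the labels do not say what a number shares. Only 3 of 6 of these libraries correlated best with their own number, and the main fit used no pairing. Codes in the sample names differ by treatment group, and Aspirin replicate 3 has another code than Aspirin replicates 1 and 2. The labels do not say what these codes mean, so between groups they cannot be told apart from treatment. Within the aspirin group the code differed at the same treatment, and its part in the spread of those libraries was not tested.

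Genes named were drawn from all 15 mitochondrial genes, the 3 nuclear genes of smallest unadjusted p per comparison and complex averaging at least 1 CPM, all of complex II, paralogues with tissue forms, up to 2 genes of smallest p per related list and comparison, Ppargc1a, Tfam and Polrmt, and the largest and smallest log2 fold change per comparison. Genes named because their groups did not overlap (such as Cox4i2) are included as counts of 5 or fewer or of 8, chosen after their values were seen. Annotation came from GENCODE vM21 on mm10 and promoters from RefSeq. Copies were found with BLAST 2.17.0, and figures were drawn with matplotlib 3.10.9.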

Additional observations from a re-analysis of the deposited data

How the results depend on the processing

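The 0 adjusted calls among the 99 genes held in every comparison under every edgeR and limma-voom alternative and without each library, and the one other count was 1 (mt-Nd5) with DESeq2 for hydrogel over aspirin. Over all genes DESeq2 called 157 for hydrogel over aspirin, 18 for hydrogel over control and 101 for aspirin over control, against 0 with edgeR. In the related lists DESeq2 called 1 citric acid cycle gene in hydrogel over aspirin and 1 in aspirin over control, and 1 biogenesis regulator in hydrogel over aspirin. The number of the 99 genes at an unadjusted p under 0.05 varied more, as did the share of all genes at that level, given in brackets. For hydrogel over aspirin it was 2 (10.9%), and 11 (14.8%) with DESeq2, 10 (14.7%) with library size alone, 4 (11.1%) with mitochondrial rows left out of scaling, 4 (11.2%) with limma-voom, 1 (8.05%) with only the 2 groups in the fit and 5 (13.8%) with the replicate block. For hydrogel over control it was 1 (3.92%), and 3 (5.68%) with DESeq2, 2 (6.68%) with only the 2 groups in the fit and 0 over genes averaging at least 10 CPM. For aspirin over control it was 0 (6.48%), and 2 (8.77%) with DESeq2 and 3 (4.85%) with library size alone. Wherever a share is given here, the count was a smaller share of the 99 than the share of all genes. Without each library in turn it ran over 0 to 10 for hydrogel over aspirin and 0 to 6 for aspirin over control. For hydrogel over control it ran over 0 to 4, being 4 (4.24%) without Hydrogel replicate 1, 2 (3.29%) without Hydrogel replicate 2, 2 (4.73%) without Aspirin replicate 3 and 0 without Hydrogel replicate 3, Control replicate 1 or Control replicate 3 (1.69, 2.36 and 3.51%).

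Leaving out each library gave mitochondrial medians of 0.77 to 1.28 for hydrogel over aspirin, 0.18 to 0.75 for hydrogel over control and -0.91 to -0.28 for aspirin over control. Nuclear medians ran over -0.07 to 0.32, -0.23 to 0.13 and -0.39 to -0.02 in the same order of comparisons, and mitochondrial minus nuclear medians over 0.70 to 1.08, 0.22 to 0.80 and -0.65 to -0.06. The mean ratio of mitochondrial to nuclear levels was 16.2 in hydrogel, 9.66 in aspirin and 12.3 in control libraries with FPKM in place of counts. With the chromosome 1 copies added it was 10.5 in hydrogel and 7.26 in aspirin libraries, and without mt-Atp6 7.81 in hydrogel libraries; both were chosen after seeing the data. All respiratory chain genes together took a mean of 28.1% of summed FPKM in hydrogel, 19.8% in aspirin and 25.9% in control libraries. With the copies added they took 17.1%, 12.2% and 16.0% of counts in hydrogel, aspirin and control libraries. FPKM divides by length, and the other settings add or remove counts; the cause of the remaining shifts was not tested. Over the 80 genes that the naming rule selects and 3 comparisons, 4 of 4080 alternative values passed the threshold, all with DESeq2, and 187 had the other sign.

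Possible pairing of aspirin with control libraries changed no call there: the replicate block left 0 calls and 0 genes at an unadjusted p under 0.05. For the other pairs of groups the correlations were 0.218, -0.335 and 0.402 between hydrogel and aspirin and 0.167, -0.168 and 0.279 between hydrogel and control. In each of these pairs 3 of 6 libraries correlated best with their own number, the same count as between aspirin and control. Depth limits Cox6b2, which had 202 counts in all, and other values rest on the spread between 3 libraries a group.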
